A study of Mus musculus with 2 samples.

Results

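Descending vasa recta endothelial cells were taken from single-cell RNA data of injured mouse kidneys as the endothelial barcodes that carried Slc14a1, the gene of the urea transporter UT-B. A barcode counted as endothelial with 3 or more unique molecular identifiers (UMIs, counted transcript molecules) over Cdh5, Pecam1, Egfl7 and Emcn and none of Ptprc or Pdgfrb. It was kept with at least 1 UMI of Slc14a1, fewer than 2 of Ehd3, a glomerular endothelial gene, and none of Gkn3, an arterial one. The members were chosen by measured counts of these genes, so the levels of these genes are a description only. The rule found 177 of 19478 cells, 88 of 9452 in the control library and 89 of 10026 in the haplodeficient one.

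Descending vasa recta are the thin straight vessels that carry blood from the efferent arterioles of deep glomeruli into the renal medulla. Their wall is a continuous endothelium with water and urea channels, wrapped by contractile pericytes. Ascending vasa recta, which return the blood, have a fenestrated endothelium, and the exchange between both limbs keeps the medulla hyperosmotic.

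Both groups had 1 kidney clamped at the renal artery and released (ischaemia and reperfusion injury), received 4 tamoxifen injections and were analysed on day 14. Control mice were Cre-, and haplodeficient mice were Cdh5-CreERT2; Phd3f/+, so that tamoxifen activates Cre in cells that use the Cdh5 promoter and removes 1 allele of Phd3 (Egln3), the gene of a prolyl hydroxylase that marks hypoxia-inducible factors. Whether control mice carried the floxed allele, and how many animals a library holds, were not stated in the labels. The comparison asks how loss of an endothelial copy bears on the kidney after injury. There was 1 library per group, both in batch 1, so no difference between groups has a replicate check, no p-value is given, and every interval in parentheses is a 95% interval for counting error only.

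The libraries held 134190236 and 114668145 UMIs. The descending vasa recta cells had a median of 8653.5 UMIs and 3240.5 genes in the control library and of 7660 UMIs and 3026 genes in the haplodeficient one. Of their UMIs, 2.92% and 2.12% were mitochondrial. No barcode was a member in both libraries, although 28 cell barcodes occurred in both. The libraries differed in makeup, with 3368 control and 529 haplodeficient proximal tubule cells and 1299 and 3163 leukocytes by simple marker rules.

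Some barcodes looked like 2 cells. They had over 1% of their UMIs from markers of tubule, podocyte, leukocyte, pericyte or fibroblast cells (without Podxl and Cryab), or over 3 times the median UMI count of the members. These markers, Kap and Lyz2 among them, picked the barcodes, so how far they lie in such barcodes is a description only. There were 16 of 88 such barcodes in the control library and 10 of 89 in the haplodeficient one, and they held 41.6% and 29.8% of all UMIs of the members. Values are therefore given for all members and again without these barcodes (72 and 79 cells left), the latter as values "without two-cell-like barcodes".

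The promoters of 3 genes that set these cells apart, shown to give the sequence behind the marker genes, are the 200 bases before the RefSeq start on GRCm38.p6, 5′ to 3′ on the plus strand. Capitals mark ACAAT or its reverse ATTGT, the core that SOX factors bind, which was searched on both strands because Sox17 was high in the cells.
Aqp1 (chr6:55336099-55336298): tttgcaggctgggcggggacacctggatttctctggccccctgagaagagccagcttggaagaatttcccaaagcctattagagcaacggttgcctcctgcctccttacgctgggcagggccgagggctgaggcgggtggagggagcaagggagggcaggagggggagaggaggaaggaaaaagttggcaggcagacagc
Hpgd (chr8:56294352-56294551): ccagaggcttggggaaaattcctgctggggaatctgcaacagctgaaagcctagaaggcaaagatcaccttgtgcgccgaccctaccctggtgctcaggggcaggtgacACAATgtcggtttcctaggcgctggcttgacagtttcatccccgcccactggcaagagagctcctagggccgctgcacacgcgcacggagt
Cldn5 (chr16:18776647-18776846): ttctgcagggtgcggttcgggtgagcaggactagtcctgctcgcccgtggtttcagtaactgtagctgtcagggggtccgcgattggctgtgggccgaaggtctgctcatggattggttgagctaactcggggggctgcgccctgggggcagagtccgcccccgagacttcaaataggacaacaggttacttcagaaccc
The core began 91 bases before the Hpgd start and did not occur in the other two windows. It was present in 22.8% of all 32843 promoter windows of this length. Of 18 genes high in the cells that were looked up (the 15 highest, Cldn5, Sox17 and Gja5), 15 had an entry, and 3 of these held the core in at least 1 window. The cores of NFAT5 sites (TGGAAA, in 14.7% of all windows) and of hypoxia response elements (ACGTG, in 14.0%), also searched on both strands, did not occur in the 3 windows shown.

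The label was checked with Aqp1 and Hpgd, the markers that the rule did not use. Aqp1, the gene of a water channel of this endothelium and of proximal tubule and thin limb, stood at 2552 CPM (counts per 1000000 UMIs of the cells summed) in control and 2162 CPM in haplodeficient descending vasa recta cells, against 153 and 118 CPM in other endothelial cells. At least 1 UMI of Aqp1 was found in 94.3% and 97.8% of the cells. Hpgd, which encodes the enzyme that inactivates prostaglandins, stood at 419 and 732 CPM against 25.2 and 30.6 CPM, with a UMI in 73.9% and 82.0% of the cells. Both markers were thus high in both libraries, and 4 control and 2 haplodeficient cells lacked both.

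Shares of cells with a UMI depend on depth and on free RNA, so cells were also thinned to 1000 UMIs. Aqp1 was then seen in 83.7% (control) and 77.5% (haplodeficient) of the descending vasa recta cells and in 9.91% and 7.78% of other endothelial cells. Leukocytes, which should lack it, gave 1.16% and 0.258%, and proximal tubule cells, which carry it, 14.5% and 7.82%. For Hpgd the thinned shares were 45.3% and 50.6% in the cells, 2.83% and 3.44% in other endothelial cells, and 0.333% and 0.191% in proximal tubule cells. In leukocytes Hpgd was seen in 8.29% and 5.12%. Both genes thus mark descending vasa recta cells among endothelial cells but not among all cells.

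**Figure D1:**
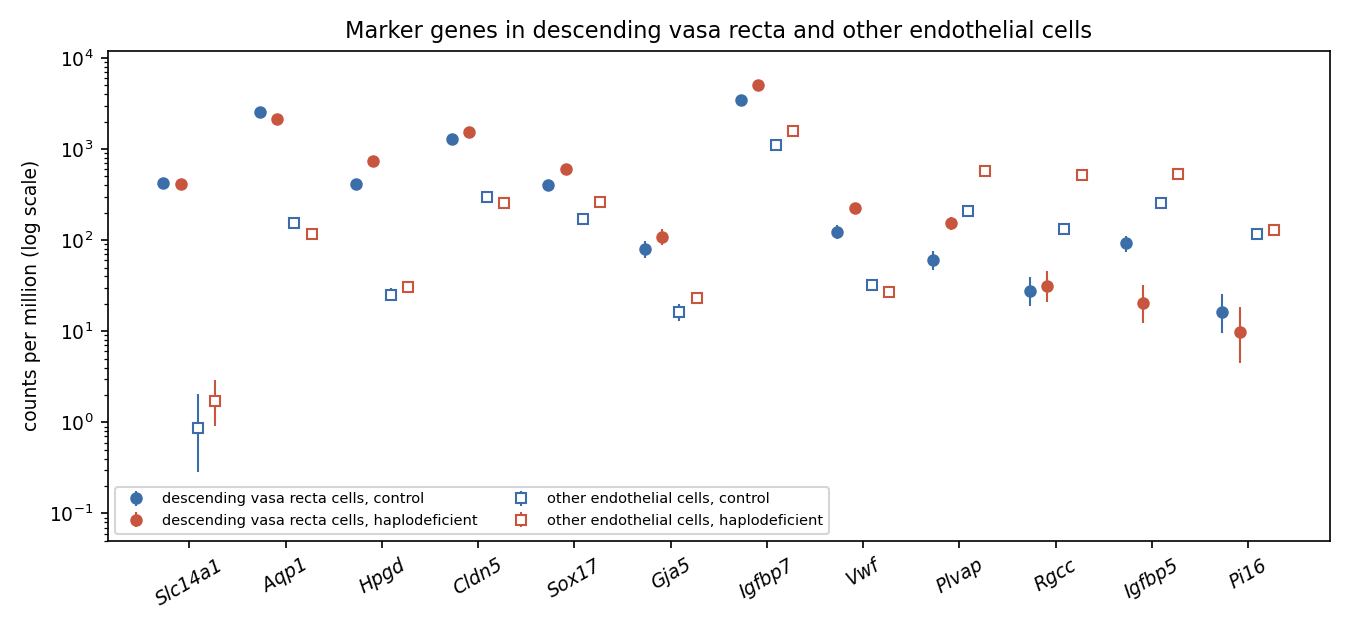
Summed CPM (log axis) of 12 genes in descending vasa recta cells (filled circles) and other endothelial cells (open squares) of the control (blue) and haplodeficient (red) library, with exact Poisson 95% intervals. Aqp1, Hpgd and Cldn5 lie above other endothelial cells in both libraries, and Plvap, Rgcc, Igfbp5 and Pi16 lie below.

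Cells that entered with a single UMI of Slc14a1 carried less of the other markers. They numbered 20 control and 26 haplodeficient cells, with median depths of 10408 and 5464.5 UMIs. Aqp1 was at 570 and 1240 CPM in them, at 2754 and 2113 CPM in the 28 and 25 cells with 2 or 3 UMIs, and at 3854 and 2705 CPM in the 40 and 38 cells with 4 or more. Endothelial cells without Slc14a1 had 152 and 118 CPM. Hpgd followed the same order, from 152 and 348 CPM at a single UMI through 498 and 850 CPM to 562 and 876 CPM. Just outside the rule, 1 control and 3 haplodeficient endothelial cells with Slc14a1 were left out for Ehd3 or Gkn3. At the lowest endothelial sum allowed, 3 UMIs, there were 5 and 2 cells, with Aqp1 at 503 and 607 CPM.

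Markers of other cells were read next. Those of tubule, podocyte, leukocyte, pericyte and fibroblast cells, apart from Podxl and Cryab, had also picked the two-cell-like barcodes. The glomerular endothelial list summed to 495 and 520 CPM, near the 491.5 and 684 CPM of other endothelial cells, with 4 of 5 genes detected and Sost at 0. Plat made up most of it: without two-cell-like barcodes it was at 654 and 557 CPM, of list sums of 744 and 638 CPM. Of this list Ehd3, limited by the rule, was at 5.41 and 8.71 CPM and Pi16 at 16.2 and 9.80 CPM, and its part in the results was not tested. The 4 lymphatic markers summed to 42.4 and 15.2 CPM, with Lyve1 and Mmrn1 at 0, and the 6 pericyte and smooth muscle markers to 99.3 and 53.3 CPM. Leukocyte markers summed to 471 and 56.6 CPM, and to 29.4 and 63.6 CPM without two-cell-like barcodes. Pdgfrb and Ptprc were at 0 by the rule, and Cd3e also. The 6 proximal tubule markers summed to 2592 CPM in control and 476 CPM in haplodeficient cells, and to 456 and 4.65 CPM without two-cell-like barcodes. The 4 thick ascending limb markers summed to 998 and 1141 CPM, and to 331 and 582 CPM without those barcodes. The 5 descending thin limb markers summed to 754 and 160 CPM, against 409 and 512 CPM in other endothelial cells. A UMI of this list was found in 45 control and 28 haplodeficient cells. Without two-cell-like barcodes it summed to 288 and 191 CPM, of which Cryab, the gene of this list that did not pick barcodes, was 258 and 171 CPM. The 4 collecting duct markers summed to 132 and 216 CPM. The red cell list was at 28.9 CPM in control cells, and all 3 of its genes were at 0 in haplodeficient cells.

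The cells made up 16.8% (13.7 to 20.3) of 523 endothelial cells in the control library and 10.0% (8.12 to 12.2) of 889 in the haplodeficient one. The difference, haplodeficient minus control, was -6.81 percentage points (-10.7 to -3.16). Their share of all cells was 0.931% and 0.888%. Other endothelial cells had a median of 7719 UMIs in the control and 4540.5 UMIs in the haplodeficient library, and a deeper cell has more chances to show a UMI of Slc14a1. With all endothelial cells thinned to 1000 UMIs, 37 of 510 control cells (7.25%, 5.16 to 9.86) and 37 of 873 haplodeficient cells (4.24%, 3.00 to 5.79) still had Slc14a1. These intervals overlap, Slc14a1 is the gene of the rule, and the endothelial cells were picked at full depth. The number of descending vasa recta cells was nearly equal in the libraries, and that of other endothelial cells was 435 and 800. Differences in dissociation between 2 preparations cannot be told apart from the genotype here.

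Genes were next compared between descending vasa recta cells and other endothelial cells of the same library. The members were chosen in this contrast, so its values are a description without a test. Of 3904 genes with enough counts, 94 (2.41%) were at least 2-fold higher in both libraries and 62 (1.59%) at least 2-fold lower, on the scale of log2(CPM + 5) and with Poisson intervals apart. The genes of the rule were left out. Leaving two-cell-like barcodes out of both sets of cells gave 92 and 85 genes, of which 66 and 26 were shared with the first count. Among the other endothelial cells, 106 and 153 barcodes with 58.2% and 59.6% of the UMIs had been two-cell-like by this measure.

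Highest of all was Ptn, which encodes the secreted growth factor pleiotrophin. It stood at 931 CPM (875 to 990) in control and 1600 CPM (1520 to 1684) in haplodeficient cells, against 36.8 and 66.1 CPM in other endothelial cells. This was 25.3-fold (21.8 to 29.5) and 24.2-fold (21.9 to 26.8). Aqp1 was 16.6-fold and 18.4-fold higher and Hpgd 16.6-fold and 23.9-fold. Lef1, a transcription factor of Wnt signalling, was 16.1-fold and 14.5-fold higher, at 410 and 352 CPM. The orphan nuclear receptor gene Nr5a2 was at 108 and 128 CPM against 11.5 and 13.9 CPM.

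Other genes of this group encode surface and matrix proteins. Reck, a membrane-anchored inhibitor of matrix proteases that also serves Wnt signalling at brain endothelium, had log2 ratios of 3.03 (control) and 3.52 (haplodeficient). Procr, the endothelial protein C receptor, had 2.24 and 2.57. The matrix genes Col4a6 (2.18 and 2.44) and Ccn2 (2.33 and 2.14) were high as well. Csf2rb (2.89 and 2.74) and Csf2rb2 (3.36 and 3.24), near-identical cytokine receptor genes between which reads can be split, were both high. Fam181b, Gask1b, Fbxo7 and Aqp11, a second aquaporin, completed the 15 highest, with log2 ratios from 2.15 to 2.86.

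**Figure D2:**
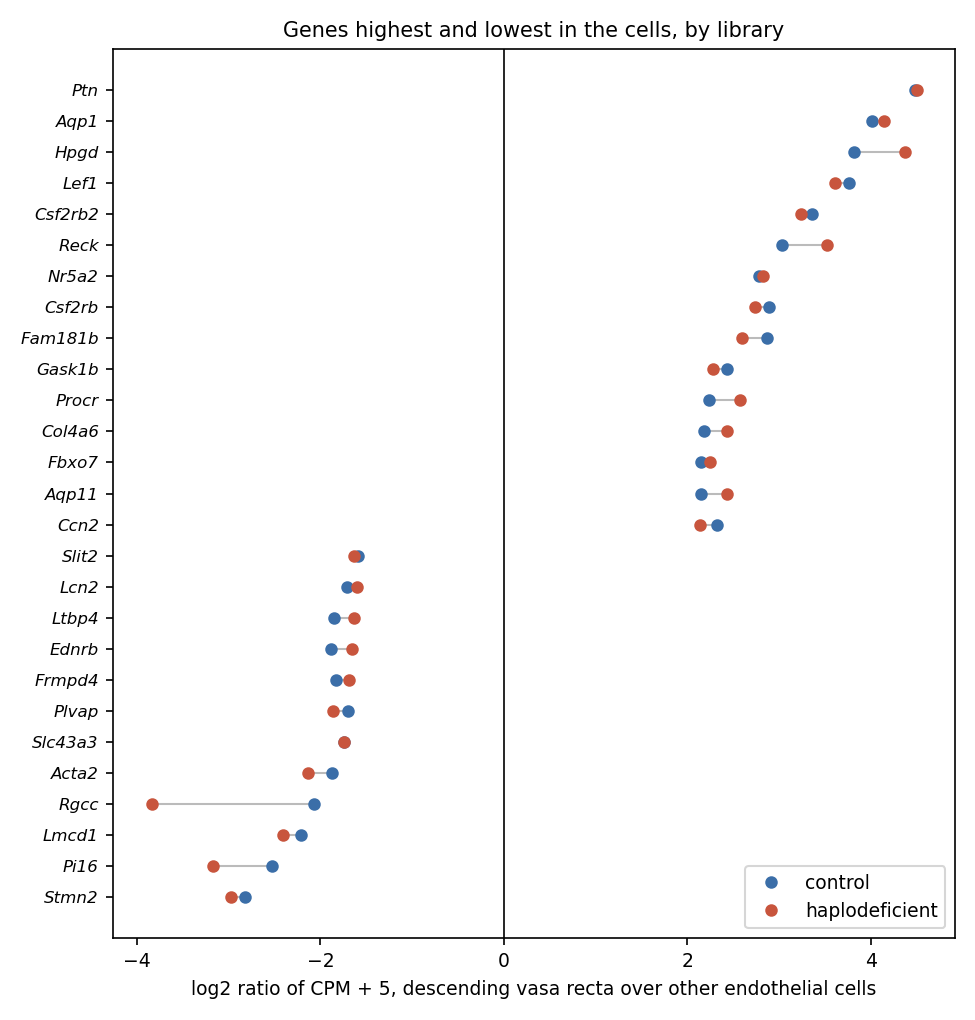
Log2 ratios of CPM + 5 of descending vasa recta over other endothelial cells for the 15 highest and 12 lowest genes, in the control (blue) and haplodeficient (red) library. The libraries gave like values for most genes, such as Ptn (4.49 and 4.50), and differed for Rgcc (-2.07 and -3.84).

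A few junction and arterial genes were high against all other endothelial cells, a mix that includes arterial and glomerular cells. Cldn5, the tight junction claudin of endothelium, was at 1294 CPM (1228 to 1363) and 1528 CPM (1450 to 1611), 4.33-fold and 5.95-fold over other endothelial cells. Over all 3904 genes, 2.41% were higher and 1.59% lower. Of 11 eligible junction genes 2 were called higher (Cldn5 and Esam) and 1 lower (Plvap). Of 19 eligible arterial and Notch genes 6 were higher: Sox17, an arterial transcription factor (407 and 606 CPM, 2.40-fold and 2.33-fold), the gap junction genes Gja4 and Gja5, the Notch receptor and ligand genes Notch4 and Dll4, and the kinase gene Bmx. Gja5 was 4.92-fold and 4.70-fold higher. Fbln2 and Ltbp4, elastic matrix genes of large arteries, were lower, so the list did not move one way. The 10 arterial markers summed to 1156 and 1960 CPM, against 1292 and 1276 CPM in other endothelial cells. Without two-cell-like barcodes these markers summed to 1707 and 2561.5 CPM in descending vasa recta cells, of which Mgp alone was 158 and 869 CPM. With two-cell-like barcodes left out of both sets of cells, Gja5 of these 6 and Cldn5 were still called, and the other 5 and Esam were not.

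Of 13 eligible genes of fenestrated and venous identity 3 were called lower and 2 higher, against 1.59% and 2.41% of all 3904 genes. Plvap, which forms the diaphragms of fenestrae, was at 60.5 and 152 CPM against 207 and 568 CPM in other endothelial cells. The other lower genes were Rgcc, at 28.0 and 31.6 CPM against 133 and 518 CPM, and Igfbp5, at 92.0 and 20.7 CPM against 255 and 533 CPM. The 7 capillary and ascending vasa recta markers summed to 937 and 943 CPM, against 1076 and 2245 CPM. Outside this list, Pi16, Stmn2 (9.02 and 9.80 CPM, from 1 and 2 cells), Lmcd1, Slc43a3, Ltbp4 and Ednrb, an endothelin receptor, were also among the 12 lowest. Acta2, Frmpd4, Lcn2 and Slit2 were in that group as well but were not called without two-cell-like barcodes. Igfbp7 and Vwf of the identity list were the higher ones: Igfbp7 was at 3492 and 5072 CPM, 3.15-fold and 3.24-fold, and Vwf, von Willebrand factor, at 123 and 225 CPM, 3.82-fold and 8.34-fold.

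Transport and vessel tone genes divided, beside 2.41% of all 3904 genes that were higher and 1.59% that were lower. In the transport list Aqp1 was called higher and Slco2a1, a prostaglandin uptake transporter, lower (49.6 and 10.9 CPM against 148 and 124 CPM). Hpgd, Gja4 and Gja5 of the 15 eligible tone genes were higher, and Slco2a1 and Ednrb lower. The level of the prostaglandin-degrading enzyme was thus high where that of the uptake transporter was low. Edn1, the gene of endothelin-1, was 1.66-fold (1.35 to 2.02) and 2.21-fold (1.82 to 2.66) higher, short of the 2-fold rule in the control library. Nfat5, the transcription factor of the response to high salt, was 1.70-fold and 1.97-fold higher, and Hif1a 1.99-fold and 2.83-fold.

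The gene targeted in the study was scarce in these cells. Egln3 gave 13 UMIs in 12 of 88 control cells and 10 UMIs in 10 of 89 haplodeficient cells, or 11.7 CPM (6.25 to 20.1) and 10.9 CPM (5.22 to 20.02). The ratio of 0.928 (0.364 to 2.29) includes both no change and a halved level, so the loss of an allele was not detectable at this depth. Other endothelial cells had 11.3 and 13.9 CPM. A tag at the 3′ end need not lie in the floxed part, which the labels do not give, so the value checks neither the label nor the recombination. Egln1, Egln2 and Hif1an, the other oxygen sensors of the pathway, were under the count limit as well. Epas1 was at 415 and 496 CPM and Hif1a at 248 and 298 CPM. Without two-cell-like barcodes Epas1 ran the other way, at 622 and 541 CPM, and Hif1a was at 337 and 344 CPM. Of 10 eligible targets of hypoxia-inducible factors 4 were above 0 and 6 below in log2 ratio, with a median of -0.10, and none was called. Without two-cell-like barcodes the median was -0.23, and again none was called.

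Between the groups, 32 of 3732 eligible genes (0.857%) were at least 2-fold higher in haplodeficient descending vasa recta cells and 142 (3.8%) at least 2-fold lower, with a median log2 ratio over all eligible genes of 0.02. Two-cell-like barcodes weighed on the lower genes: for 124 of the 142, over 50% of the control UMIs lay in them. Without those barcodes 25 of 3621 genes (0.69%) were higher and 93 (2.57%) lower, and the median was -0.03. The 2 counts had 11 higher and 32 lower genes in common (34.4% and 22.5% of those called in all cells), and those beyond the 15 largest changes in each direction were chosen after their values were seen. In other endothelial cells 1.31% of 3977 genes were higher and 2.14% lower, and without two-cell-like barcodes 1.59% of 3777 were higher and 4.55% lower.

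Mgp, the gene of matrix Gla protein, an inhibitor of vascular calcification that is high in arteries, was higher in the haplodeficient cells. It stood at 101 CPM (83.2 to 122) in control and 629 CPM (579 to 683) in haplodeficient cells, a 6.23-fold (5.08 to 7.69) difference, and at 158 and 869 CPM without two-cell-like barcodes. A UMI of Mgp was found in 18 of 88 and 36 of 89 cells, with at most 34 and 80 UMIs in a cell. At 1000 UMIs per cell the shares were 6.98% (2.60 to 14.6) and 25.8% (17.1 to 36.2), against 17.9% and 15.4% in other endothelial cells and 1.71% and 1.68% in leukocytes. The ratio was 0.618 (0.586 to 0.652) in other endothelial cells without two-cell-like barcodes. Free RNA, profiled in barcodes of 1 to 100 UMIs, held Mgp at 140 CPM in the control and 304 CPM in the haplodeficient library. Over the 14 alternatives run for it, the log2 ratio of Mgp was between 2.25 and 2.87.

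The other genes higher in both counts were less marked. Syt15, a synaptotagmin gene, rested on 26 and 47 cells with 34.3 and 113 CPM, 3.30-fold (2.26 to 4.92). Galnt15, Smco4 and Vkorc1, the vitamin K epoxide reductase, were 2.76-fold, 2.55-fold and 2.45-fold higher. AW112010, an interferon-induced transcript, was 2.38-fold higher and also higher in other endothelial cells (log2 ratio 1.51 there and 1.20 here). Clu was at 319 and 1176 CPM, but a single barcode held 54.5% of its haplodeficient UMIs and free RNA held it at 1070 and 2213 CPM. Without two-cell-like barcodes Clu was at 156 and 607 CPM, in 13 and 22 cells. The highest cell then had 46 and 306 UMIs, and the latter held most of the haplodeficient UMIs left. Wfdc2 and Cldn10, tubule genes, had 71.5% and 54.3% of their control UMIs in two-cell-like barcodes. The remaining 2 were 1 ribosomal and 1 mitochondrial ribosomal protein gene.

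Several genes met the rule in all cells but not without two-cell-like barcodes. Plvap was 2.52-fold higher (1.87 to 3.43) in all cells and 1.15-fold (0.804 to 1.66) without them, and 50.7% of its haplodeficient UMIs lay in the 10 two-cell-like barcodes. Lrg1, a gene of vessel growth signalling, went from a log2 ratio of 1.30 to 0.95, Ramp2, the partner of the adrenomedullin receptor, from 1.14 to 0.91, Ahr, the dioxin receptor, from 1.23 to 0.88, and Psmb9 from 1.07 to 0.91. Ctla2a, Ccdc28b, Palmd and Tcim fell short likewise, at 0.80, 0.90, 0.70 and 0.56. Car15, first in all cells at 2.68, was at 0.64, with 59.6% of its haplodeficient UMIs in 1 barcode.

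Tubule transcripts led the lower genes. Kap, an abundant proximal tubule transcript, was at 1642 CPM in control and 164 CPM in haplodeficient cells, with 94.3% of the control UMIs in two-cell-like barcodes. Without them it was at 161 and 3.103 CPM. Kap, like Lyz2 below, is one of the markers that picked these barcodes, so this fall follows in part from the rule. Free RNA held Kap at 11105 CPM in the control and 547 CPM in the haplodeficient library. Cdh6, Pax8, Fut9, S100g and Cyp2e1, also genes of tubule segments, had log2 ratios from -3.39 to -2.32 and were in 12 to 23 control cells. Without two-cell-like barcodes these 5, and Gpc5, Rbms3, Sema5a, Naaladl2 and Veph1, were under the count limit of 50 CPM on average and so not called. Their log2 ratios then ran from -2.38 for Fut9, as large as in all cells, and -1.90 for Cdh6 to -0.40 for Gpc5. Pde4c, a phosphodiesterase gene, was still called (-2.22 in all cells and -1.87 without them, from 33 and 15 cells), and so was Slc14a2 (-3.17 and -2.60, from 12 and 2 cells). Slc14a2, the gene of the tubular urea transporter UT-A, is a homologue and neighbour of Slc14a1, and whether reads were split between both was not tested. Lyz2, a macrophage gene, had 95.5% of its control UMIs in 1 barcode and had a log2 ratio of -3.12 in all cells and of 0.86 without two-cell-like barcodes. How much of these differences came from tubule cells, leukocytes or free RNA was not tested. Of 13 mitochondrial genes for proteins, 8 were called lower in all cells, against 3.8% of all genes. Without two-cell-like barcodes 1 of these 8 was still called, and the other 7 had log2 ratios from -0.82 to -0.29. Another mitochondrial gene, outside these 8, then ran the other way, at 257 and 523 CPM.

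Dusp1, a phosphatase gene of the early stress response, had 714 CPM (665 to 765) in control and 349 CPM (312 to 390) in haplodeficient cells, a ratio of 0.490 (0.429 to 0.558), and 0.404 (0.343 to 0.473) without two-cell-like barcodes. It was detected in 71 of 88 and 49 of 89 cells, with a median of 4 UMIs and 1 UMI per cell. For other endothelial cells without two-cell-like barcodes the ratio was 1.10 (1.03 to 1.17). Neat1, a nuclear non-coding RNA, had a ratio of 0.463 (0.411 to 0.522), and was lower in other endothelial cells too (log2 ratio -1.84 there and -1.10 here). Spp1, osteopontin, was at 7636 and 2817 CPM. It was found in 68 and 48 cells, two-cell-like barcodes held 66.5% and 64.1% of its UMIs, and free RNA held it at 7648 and 8496 CPM.

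Fabp4 and Igfbp5, genes of capillary endothelium, were also lower. Fabp4, a fatty acid carrier, was at 568 CPM (524 to 614) and 118 CPM (96.4 to 142), a ratio of 0.207 (0.167 to 0.254), from 24 and 15 cells. One control cell held 26.7% of its UMIs. Igfbp5 was at 92.0 and 20.7 CPM, from 14 and 11 cells. In other endothelial cells without two-cell-like barcodes both ran the other way, with ratios of 1.72 (1.64 to 1.81) for Fabp4 and 2.01 (1.87 to 2.16) for Igfbp5. Few descending vasa recta cells carried either gene, so these values rest on small subsets of cells.

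Immediate early and heat shock genes, which respond to stress including that of tissue dissociation, mostly had log2 ratios below 0. Of 20 eligible genes 19 had a log2 ratio below 0 in all cells, with a median of -0.43, and Dusp1 and Hsph1 were called. Without two-cell-like barcodes 20 of 20 were below 0, the median was -0.86, and 7 were called: Zfp36, Dusp1, Fosb, Btg2, Jund, Hsph1 and Dnajb1, against 2.57% of all 3621 genes. Zfp36, which destabilises inflammatory mRNAs, was then at 739 and 203 CPM. Fos and Jun, which form the AP-1 factor, were not called, at 2985 and 1623 CPM and at 2839 and 2321 CPM. Over the 14 alternatives the median was between -1.26 and -0.42. In other endothelial cells without two-cell-like barcodes it was -0.16, with 7 of 19 genes above 0. The difference between both kinds of cells was not tested, and handling of the 2 suspensions cannot be told apart from genotype.

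**Figure D3:**
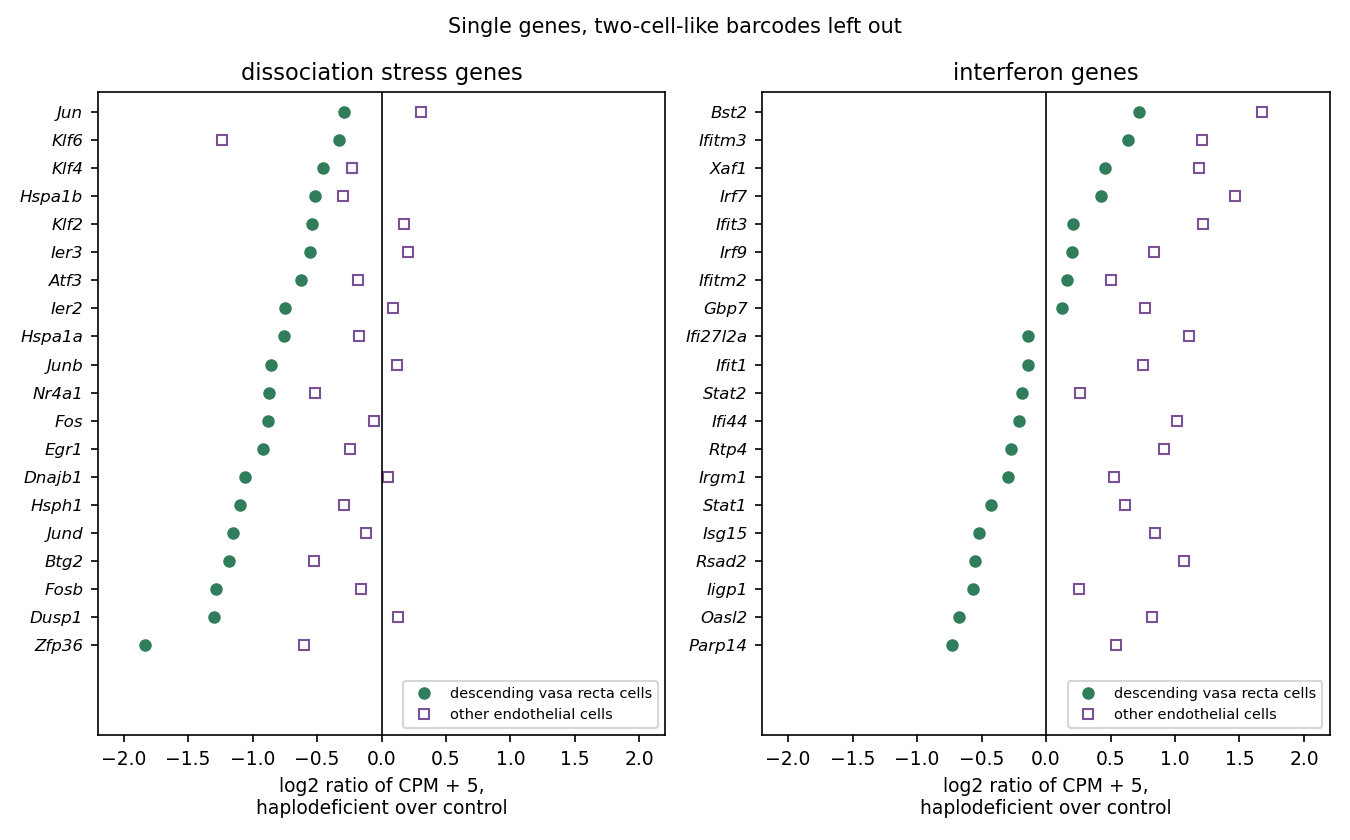
Log2 ratios of CPM + 5, haplodeficient over control, of the 20 dissociation stress and 20 interferon genes eligible in descending vasa recta cells, without two-cell-like barcodes. Green circles are descending vasa recta cells and open violet squares other endothelial cells, and all stress genes lie below 0 in the former, from Zfp36 (-1.84) to Jun (-0.29).

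Interferon-induced genes differed little between the groups in descending vasa recta cells. Of 20 eligible genes 13 were above 0 and 7 below, none was called, and the median was 0.08. Without two-cell-like barcodes 10 of 24 were above 0, with a median of -0.16. In other endothelial cells without such barcodes 25 of 25 were above 0, with a median of 0.91. The levels that follow are those of all cells. Rsad2, an antiviral enzyme gene, was at 462 CPM (423 to 504) and 439 CPM (397 to 484) in descending vasa recta cells and at 175 CPM (164 to 186) and 360 CPM (347 to 374) in other endothelial cells. Isg15 was at 421 and 367 CPM against 190 and 365 CPM, and Ifi27l2a at 404 and 425 CPM against 91.8 and 237 CPM. Descending vasa recta cells without two-cell-like barcodes had Rsad2 at 749 and 510 CPM. Isg15 was then at 646 and 450 CPM and Ifi27l2a at 626 and 569 CPM, all lower in haplodeficient cells.

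In the control library these genes were thus higher in descending vasa recta cells, with a median log2 ratio over other endothelial cells of 0.71, and in the haplodeficient library it was -0.11. Bst2 and Ifitm3, antiviral membrane proteins, differed more between the groups, at 426 and 805 CPM and at 1826 and 3338 CPM, 1.89-fold (1.68 to 2.12) and 1.83-fold (1.73 to 1.93) higher in haplodeficient cells. Without two-cell-like barcodes the gap was smaller, at 603 and 999 CPM for Bst2 and 2713 and 4206 CPM for Ifitm3.

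Genes of antigen presentation on MHC class I were slightly higher. All 12 eligible genes were above 0, with a median log2 ratio of 0.21, and Psmb9, an immunoproteasome subunit, was called at 106 and 230 CPM. Without two-cell-like barcodes the median was 0.10 and 8 of 12 were above 0. The same list had a median of 0.72 in other endothelial cells without such barcodes, with 12 of 12 above 0. H2-K1 was at 1697 and 1918 CPM. Reads of near-identical class I genes can be split between copies, so single genes of this family are uncertain.

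Genes of the osmotic response, which medullary cells use to build up organic osmolytes, were lower in part. The median of 11 eligible genes was -0.38 (7 below 0), and -0.36 without two-cell-like barcodes. Akr1b3, aldose reductase, which makes sorbitol, was at 287 CPM (256 to 320) and 109 CPM (88.6 to 132), a ratio of 0.379 (0.300 to 0.476), with 51 cells positive in each library and a highest cell of 63 and 6 UMIs. Slc5a3, the myo-inositol transporter, was at 163 CPM (140 to 189) and 71.9 CPM (55.6 to 91.4), a ratio of 0.440 (0.327 to 0.586), and 0.441 (0.336 to 0.577) in other endothelial cells without two-cell-like barcodes. For Akr1b3 the ratio there was 1.20 (0.975 to 1.48). S100a4 was called lower too, at 190 and 76.2 CPM.

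The list did not move as a whole. Cryab, a small heat shock protein also abundant in thin limb cells, was called lower in all cells but not without two-cell-like barcodes, which held 76.9% of its control UMIs. Slc6a6, the taurine transporter, was at 272 and 167 CPM, and at 269 and 137 CPM without those barcodes, short of the rule in both. Nfat5, the regulator of these genes, was at 691 CPM (643 to 742) and 751 CPM (696 to 809), and Sgk1 had a log2 ratio of 0.25. The ratio of Nfat5 between the groups was 1.09 (0.979 to 1.21).

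The genes that define the vessel kept their levels within the 2-fold rule. Aqp1 had a ratio of 0.847 (0.800 to 0.898) in all cells and 0.690 (0.648 to 0.733) without two-cell-like barcodes. Hpgd ran the other way, at 1.75 (1.55 to 1.97) and 1.47 (1.30 to 1.66), as did Ptn at 1.72 (1.59 to 1.86) and 1.51 (1.38 to 1.64). Lef1 was at 0.858 (0.742 to 0.992) and 0.655 (0.560 to 0.765). Cldn5 had 1.18 (1.10 to 1.27) and 0.993 (0.919 to 1.07), Gja5 1.36 (1.01 to 1.83) and 1.21 (0.886 to 1.66), and Vwf 1.84 (1.47 to 2.30) and 1.39 (1.10 to 1.76). Other endothelial cells had ratios on the same side of 1 for Aqp1 (0.767, 0.698 to 0.843), Ptn (1.80, 1.53 to 2.12) and Hpgd (1.21, 0.982 to 1.504). In endothelial cells without Slc14a1, Lef1 (25.1 and 24.4 CPM) and Gja5 (16.2 and 21.9 CPM) also ran the same way as in all members. Vwf (32.2 and 27.2 CPM) and Cldn5 (300 and 259 CPM) ran the other way there. Whether these differences are particular to descending vasa recta cells was not tested.

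Most other lists stayed near the median of all genes once two-cell-like barcodes were left out. The arterial and Notch list went from a median of 0.28 to 0.07, junctions from 0.36 to 0.01, growth and sprouting from 0.28 to -0.14, fenestrated and venous identity from 0.06 to -0.12, and tone and prostaglandins from 0.38 to 0.17. The fenestrated list had a median of 0.66 in other endothelial cells without such barcodes, with 13 of 14 genes above 0. Adhesion and chemokine genes went from 0.32 to 0.15, and matrix genes from 0.29 to 0.09. The transport list, with 9 eligible genes, went from 0.04 to -0.04, and the hydroxylase list, with 3, from 0.26 to -0.20. MHC class II had 2 eligible genes and a median of -0.33. Of the 7 lists from arterial to matrix genes, in descending vasa recta cells, 2 had a called gene without two-cell-like barcodes: Igfbp5 (fenestrated) and Ccn1 (matrix), both lower.

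**Figure D4:**
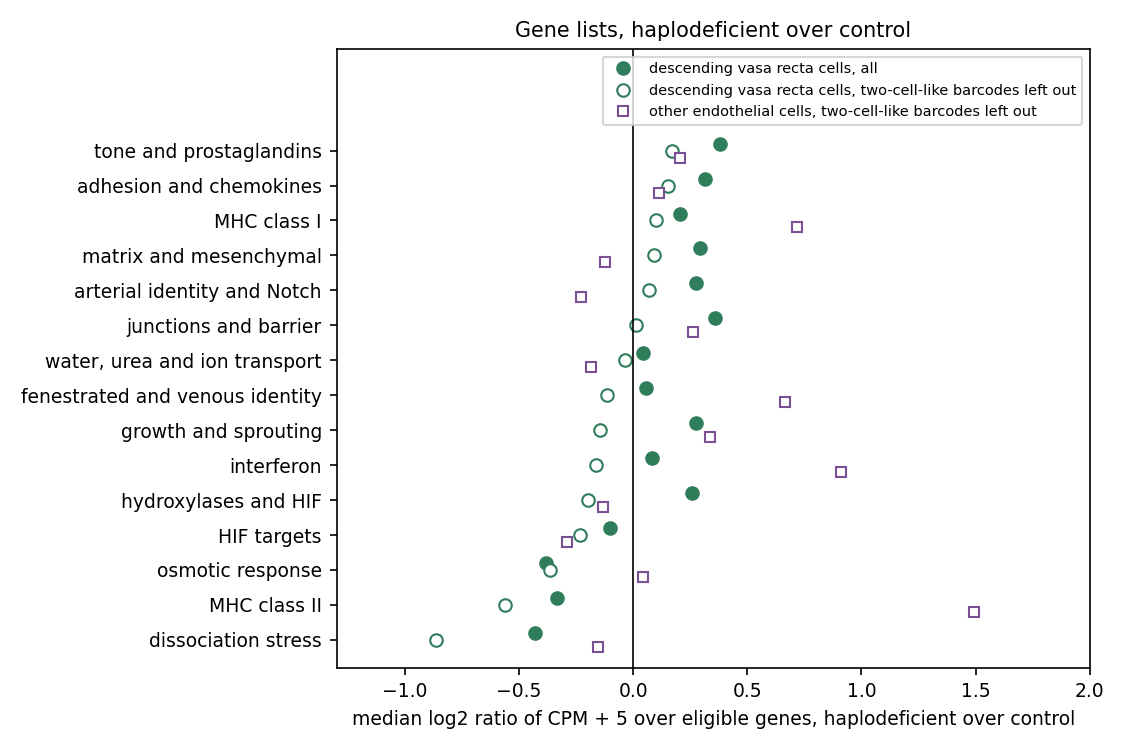
Median log2 ratio of CPM + 5, haplodeficient over control, of 15 gene lists in all descending vasa recta cells (filled circles), in those without two-cell-like barcodes (open circles) and in other endothelial cells without such barcodes (open squares). The interferon list lies at 0.08, -0.16 and 0.91 and the dissociation stress list at -0.43, -0.86 and -0.16.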

How the data were processed

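Kidney cell suspensions were run on droplet 3′-end chemistry, 1 library per group, and the authors deposited raw counts of UMIs per gene and barcode, unfiltered, from Cell Ranger 4 per the file headers, with build mm10 per the submitters' processing notes. Members, gene lists and comparisons were chosen with earlier results of these data known.

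Barcodes with at least 500 UMIs, 200 genes and at most 50% mitochondrial UMIs were kept. No doublet caller was run. Ptprc and Pdgfrb removed some doublets, and two-cell-like barcodes were left out as an alternative. UMIs were summed over cells and given as CPM. Log2 ratios used a pseudocount of 5 CPM, which understates low genes. Eligible genes had a mean of 50 CPM and 30 UMIs over both groups. A gene was called at a log2 ratio of 1 or more in size with exact Poisson 95% intervals apart. This filter drops low genes that are lower still in one group. CPM ratios have exact conditional binomial intervals, and shares Clopper-Pearson ones. Named were the 15 highest and 12 lowest called genes against other endothelial cells, the 15 highest and 15 lowest between groups, list and marker genes, and others where stated. Predicted, mitochondrial and ribosomal genes were counted only. One gene that the rule names is not reported here.

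Barcodes of 1 to 100 UMIs (6363410 and 5499352 UMIs in sum) gave the profile of free RNA. Its share was estimated as the median over tubule markers at or below the count expected from that profile. Markers above that count were left out, which can lower the estimate. It made up 27.7% and 46.8% of member UMIs, and 5.59% and 11.6% without two-cell-like barcodes, so the former also counts RNA of second cells. In other endothelial cells it was 29.5% and 58.1%. Gene positions came from GENCODE M21 (32235 of 32285 identifiers), promoters from RefSeq. The size rule was tested on simulated data. Python 3.11.15, numpy 2.4.6, scipy 1.17.1 and pandas 2.3.3 were used.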

Additional observations from a re-analysis of the deposited data

Results flagged for a closer look

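Slc4a9, a bicarbonate transporter gene of intercalated cells, ran opposite ways in the 2 libraries. Its log2 ratio of descending vasa recta over other endothelial cells was -3.82 for the control and 1.15 for the haplodeficient cells, and the difference was not tested. The gene had 3 UMIs in 2 control cells and 67 UMIs in 5 haplodeficient cells, and 1 haplodeficient barcode, a two-cell-like one, held 91.0% of them. In other endothelial cells it was at 104 and 30.0 CPM. It stayed under the count limit in the comparison between groups. With 1 library per group no outlying sample could be looked for.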

How the results depend on the processing

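No paired analysis was possible because each group has 1 library, and for the same reason no replicate could be left out. Over 15 alternatives (13 planned, 2 chosen after seeing the data) the shares and counts of genes moved little in 46 of 66 recomputed values. With Slc14a1 at 2 UMIs the cells were 13.0% (control) and 7.09% (haplodeficient) of endothelial cells, 108 genes were lower than in other endothelial cells, and 89 were lower in haplodeficient cells. Leaving two-cell-like barcodes out of the members alone gave 156 genes higher and 246 lower than in other endothelial cells, and 93 lower in haplodeficient cells (82 with each remaining cell at equal weight, an added alternative). A pseudocount of 20 CPM gave 38 genes lower than in other endothelial cells and 17 higher in haplodeficient cells. Looser count filters test more genes: at a mean of 10 CPM and 10 UMIs 163 were higher and 168 lower than in other endothelial cells, and 96 higher and 425 lower in haplodeficient cells, and at 1 UMI the numbers were 176, 200, 119 and 512. With free RNA subtracted, 117 were lower than in other endothelial cells and 452 lower in haplodeficient cells. Lyz2 reversed between groups to a log2 ratio of 0.71 (Slc14a1 at 2 UMIs), 0.86 (without two-cell-like barcodes) and 1.04 (the same at equal cell weight), Gpc5 to 0.54 (the same at equal weight), and Slit2 to 0.63 against other endothelial cells (two-cell-like barcodes left out of both). Where no construction shows the cause, the cause was not tested. Of 1008 values of single genes and lists 783 stayed, 220 moved and 5 reversed, and 17 list medians changed sign. Genes under 50 CPM on average rest on few UMIs and were left out of the main counts.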
